A study of Mus musculus with 10 samples.

Results

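Carbonic anhydrases were followed as a gene family in the terminal ileum of mice with and without repeated social stress. The members were 10 genes, Car1, Car2, Car3, Car4, Car7, Car8, Car9, Car12, Car13 and Car14, out of 18193 genes with a single symbol on the array. They were chosen by gene symbol, and among several probe sets of a gene the one with the highest mean value over the 10 arrays was used. All 10 passed the filter on low values that left 13666 genes for testing. The family was picked with the difference in Car4 already known, so that difference is a description of these mice and not independent evidence about the family.

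The mice were male C57BL/6JJmsSlc animals, 7 weeks old, fed an AIN-93G diet, housed singly for 1 week of habituation and fasted for 3 h before the lower small intestine was taken. The 5 control mice were not stressed, and the 5 stressed mice went through 10 days of subchronic mild social defeat as intruders in the cages of aggressive ICR males. Physical contact lasted 5 min on the first day and was 0.5 min shorter on each following day, down to 0.5 min. Each mouse gave 1 Affymetrix array of total RNA, so n counts mice, and the comparison asks how ileal transcripts differ after mild social defeat.

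Carbonic anhydrases convert carbon dioxide and water into bicarbonate and a proton, and back. In the intestinal epithelium this supplies bicarbonate for secretion and protons and bicarbonate for the exchangers that absorb sodium and chloride. The isoforms differ mainly in where they sit. Car1, Car2, Car3, Car7 and Car13 are cytosolic, Car4 is held on the outer face of the membrane by a lipid anchor, and Car9, Car12 and Car14 span the membrane with the catalytic domain outside. Car8 has the fold of the family but lacks the catalytic activity.

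The arrays of 2 mice matter for what follows. Across all genes, control mouse 1 correlated at 0.918 to 0.947 with the other arrays, which correlated with one another at 0.975 to 0.995. In control mouse 1 all 11 measured ileal enterocyte markers were below the 8 mice other than it and stressed mouse 4. The mean of that list was 8.82 there and 11.30 to 11.84 in the other 9 mice. Fabp6, the ileal bile acid binding protein, was at 7.88 in control mouse 1, against a mean of 13.91 in the other controls and 14.03 in stressed mice. Of 13 measured large intestine markers (26 named, 22 with a single-symbol probe set), 7 were above those 8 mice in control mouse 1, where 35.64% of all genes tested were. In stressed mouse 4 it was 5 of the 13, where 13.98% of all genes were. The mean of that list was 8.42 in control mouse 1, 7.59 in stressed mouse 4 and 6.82 to 7.29 in the other mice. The log2 ratio of 3' to 5' control probe sets, a measure of RNA integrity, was 0.45 to 0.70 in 9 mice and 1.13 in stressed mouse 1. Results are therefore given with 10 mice, without control mouse 1, and without both. All values are log2 probe set values, a difference is stressed minus control with its standard error (SE) from limma, and adjusted p-values come from limma over all 13666 genes. A gene was called at an adjusted p under 0.05.

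Promoters are shown for the 3 members whose groups did not overlap without control mouse 1 (Car4, Car12 and Car14) and for Car9, a classical target of the hypoxia-inducible factor. Each line gives the 250 bases before the start of the RefSeq gene model (GRCm38.p6), 5′ to 3′ on the strand of the gene. RefSeq promoter entries matched 5 of the 10 members. Capitals mark matches, on either strand, to the core of the hypoxia-inducible factor motif, ACGTG, and to the glucocorticoid receptor motif AGAACA. Neither motif overlaps the other.
Car4: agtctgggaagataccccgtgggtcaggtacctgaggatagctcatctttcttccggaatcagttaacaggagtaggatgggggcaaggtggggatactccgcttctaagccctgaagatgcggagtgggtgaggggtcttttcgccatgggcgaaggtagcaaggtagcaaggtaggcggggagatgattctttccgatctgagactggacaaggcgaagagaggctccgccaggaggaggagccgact
Car12: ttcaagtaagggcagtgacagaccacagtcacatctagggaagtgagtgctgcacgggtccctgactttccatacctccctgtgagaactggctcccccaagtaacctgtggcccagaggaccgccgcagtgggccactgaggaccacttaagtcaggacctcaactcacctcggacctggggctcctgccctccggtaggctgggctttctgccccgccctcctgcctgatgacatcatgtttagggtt
Car14: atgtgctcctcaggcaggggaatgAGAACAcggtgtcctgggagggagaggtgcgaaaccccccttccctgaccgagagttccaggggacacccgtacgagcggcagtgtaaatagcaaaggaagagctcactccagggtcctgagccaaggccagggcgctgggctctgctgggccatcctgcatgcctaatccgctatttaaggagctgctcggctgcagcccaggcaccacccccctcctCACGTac
Car9: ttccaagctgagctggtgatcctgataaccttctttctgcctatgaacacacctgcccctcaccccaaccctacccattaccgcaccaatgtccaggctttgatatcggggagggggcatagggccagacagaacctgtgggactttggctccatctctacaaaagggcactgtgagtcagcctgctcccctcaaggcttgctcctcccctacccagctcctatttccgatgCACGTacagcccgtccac

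The Car4 window is chr11:84957504-84957753 on the plus strand and the Car12 window is chr9:66713436-66713685 on the plus strand. The Car14 window is chr3:95904686-95904935 on the minus strand and the Car9 window is chr4:43506776-43507025 on the plus strand. Car9 holds ACGTG on the strand opposite to the gene, 14 bases upstream of the start. Car14 holds the same motif on the opposite strand 3 bases upstream, and AGAACA on its own strand 221 bases upstream. The letters of either motif do not occur in the Car4 and Car12 windows. Among 32851 windows of this length, 16.57% held ACGTG, 16.08% held AGAACA and 30.3% held at least 1 of them, so such matches are common. The windows of these 4 genes held 56.4% (Car4), 59.2% (Car12), 62.0% (Car14) and 56.4% (Car9) G and C, against a median of 52.4% over all windows.

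Car4, the lipid-anchored enzyme of the outer cell surface, was lower in every stressed mouse than in any control. In control mice 1 to 5 it was at 11.29, 11.16, 10.68, 10.99 and 11.08. In stressed mice 1 to 5 it was at 9.78, 10.26, 9.86, 9.95 and 9.45. The nearest mice of the groups were control mouse 3 and stressed mouse 2, while control mouse 1 was the highest control and stressed mouse 4 was second highest among the stressed. With 10 mice the difference was -1.18 ± 0.15 (SE), or 2.26-fold lower, and it missed the threshold (adjusted p = 0.0605 in limma). That p ranked first of the 13666 genes. Leaving out control mouse 1, Car4 fell by 1.12 ± 0.15 (SE), a 2.17-fold lower level, with a limma adjusted p of 0.0184. Leaving out stressed mouse 4 as well, it differed by -1.14 ± 0.16 (SE) at a limma adjusted p of 0.0541.

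The size of the Car4 difference changed little with the choice of mice, while the call did. Leaving out each of the 10 mice in turn gave differences of -1.28 to -1.08, and Car4 was called in 2 of these 10 fits, without control mouse 1 and without stressed mouse 2 (adjusted p = 0.0253 in limma). With control mouse 1 already left out, it was called in 8 of 9 further fits, the exception being the fit without stressed mouse 4. The 2-sided exact permutation p was 0.00794 with 10 mice and also without control mouse 1, the smallest that the 252 and 126 assignments of the mice can give. Adjusted over all genes this exact permutation p was 0.349 and 0.174. The second Car4 probe set gave the same picture. It was at 10.78, 10.71, 10.30, 10.50 and 10.67 in control mice and at 9.44, 9.76, 9.25, 9.38 and 8.89 in stressed mice, a difference of -1.25 ± 0.15 (SE) with 10 mice.

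Marker levels stood as follows beside the Car4 difference. In RNA of whole tissue, fewer cells of a type and less RNA per cell cannot be told apart. The mean of 10 epithelial markers was 12.04 to 12.11 in control mice 2 to 5 and 12.09 to 12.18 in stressed mice. The mean of 9 measured villus tip markers was 9.62 to 10.00 in those controls and 9.46 to 9.92 in stressed mice. In control mouse 1 these 2 means were 11.82 and 7.34. Single villus tip markers differed: without control mouse 1, 5 were lower and 4 higher in stressed mice. Of these Ada was called, lower by 1.00 ± 0.19 (SE, limma adjusted p = 0.0444), where 0.534% of all genes were called lower. With the mean of the large intestine markers as a covariate and 10 mice, Car4 differed by -1.06 ± 0.14 (SE) and was called (limma adjusted p = 0.0344). That covariate was not free of the group difference. With 10 mice 11 of its 13 markers were lower and 2 higher in stressed mice. Among them Slc6a14 was lower in every stressed mouse than in any control. The covariate was also highest in control mouse 1, at 8.42. This fit therefore cannot separate cell composition from stress, and the contribution of cell composition was not tested.

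**Figure D1:**
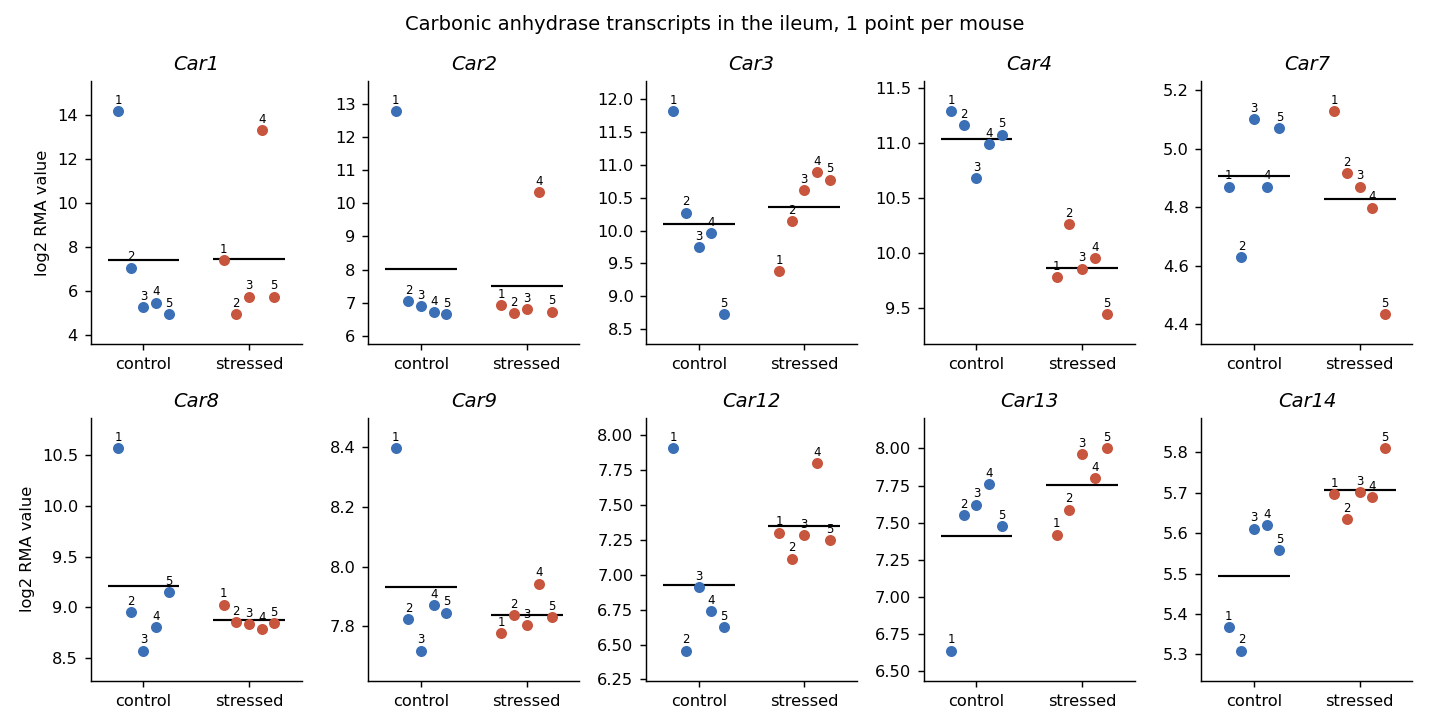
Log2 probe set value of each of the 10 carbonic anhydrases in every mouse, with control and stressed mice side by side, points numbered by mouse and a black line at each group mean (n = 5). The groups are apart in Car4, where controls lie at 10.68 or above and stressed mice at 10.26 or below, while Car1 and Car2 are set by control mouse 1 and stressed mouse 4.

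Car12, a transmembrane enzyme with its active site outside the cell, was higher in stressed mice than in 4 of the 5 controls. Control mice 1 to 5 were at 7.91, 6.46, 6.91, 6.74 and 6.62. Stressed mice 1 to 5 were at 7.30, 7.12, 7.29, 7.80 and 7.25. Control mouse 1 was the highest of all 10 mice, stressed mouse 4 came next, and the groups overlapped through control mouse 1 alone. With 10 mice the difference was 0.42 ± 0.25 (SE) and was not called (limma adjusted p = 0.742). Without control mouse 1 the groups were apart, at 6.68 ± 0.19 (SD, n = 4) and 7.35 ± 0.26 (SD, n = 5). That difference was 0.67 ± 0.14 (SE), 1.59-fold, at a limma adjusted p of 0.0505, just outside the threshold. Without stressed mouse 4 too, it was 0.56 ± 0.10 (SE) with the groups still apart and a limma adjusted p of 0.0847. The second Car12 probe set overlapped, with 5.21 to 5.51 in control mice 2 to 5 and 5.33 to 5.71 in stressed mice. Its difference without control mouse 1 was 0.20 ± 0.11 (SE), and the remaining probe set lay below the filter and differed by -0.11 with 10 mice, so the result rests on the brightest of the probe sets.

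Car14, another transmembrane enzyme, differed by little, yet its groups were apart. It was at 5.37, 5.31, 5.61, 5.62 and 5.56 in control mice 1 to 5 and at 5.70, 5.63, 5.70, 5.69 and 5.81 in stressed mice 1 to 5. The lowest stressed mouse was just above the highest control mouse, and control mouse 1 was among the low controls. The difference was 0.21 ± 0.08 (SE) with 10 mice (limma adjusted p = 0.570) and 0.18 ± 0.08 (SE) without control mouse 1 (limma adjusted p = 0.272). It did not pass in either.

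Car9, the transmembrane isoform best known as a hypoxia target, had nearly the same level in both groups. It was at 7.82, 7.72, 7.87 and 7.85 in control mice 2 to 5 and at 7.78, 7.84, 7.80, 7.94 and 7.83 in stressed mice 1 to 5. Control mouse 1, at 8.40, was above all of them. The difference was -0.09 ± 0.12 (SE) with 10 mice and 0.02 ± 0.07 (SE) without control mouse 1, so its sign turned with that mouse.

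Car1, a cytosolic enzyme that is abundant in colon epithelium and in red blood cells, varied more between mice than any difference between the groups. It was at 14.17, 7.06, 5.27, 5.46 and 4.95 in control mice 1 to 5. In stressed mice 1 to 5 it was at 7.41, 4.95, 5.73, 13.32 and 5.74. Control mouse 1 and stressed mouse 4 stood far above all others, 1 in each group. Control mouse 2 and stressed mouse 1 were the next highest. The group means were 7.38 ± 3.88 (SD, n = 5) and 7.43 ± 3.41 (SD, n = 5), a difference of 0.05 ± 1.96 (SE, limma adjusted p = 0.998). Without control mouse 1 it was 1.75 ± 1.39 (SE, limma adjusted p = 0.535), and without both mice 0.27 ± 0.53 (SE, limma adjusted p = 0.864).

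Car2, the fast cytosolic enzyme of many secreting and absorbing epithelia, was high in the same mice. Control mice 1 to 5 were at 12.77, 7.05, 6.89, 6.72 and 6.66, and stressed mice 1 to 5 at 6.92, 6.68, 6.81, 10.33 and 6.73. The 8 other mice fell within 6.66 to 7.05, a much narrower band than that of Car1. The difference was -0.53 ± 1.18 (SE) with 10 mice, 0.66 ± 0.63 (SE) without control mouse 1 and -0.05 ± 0.10 (SE) without both. Its sign turned each time another of these mice was left out, and none of the 3 differences was called (limma adjusted p = 0.937, 0.613 and 0.877).

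Set against the median of the 8 other mice, Car1 had the largest excess of all 13666 genes in both of these mice. That excess was 8.57 in control mouse 1 and 7.73 in stressed mouse 4. Car2 exceeded its median by 6.01 and 3.56, ranking 4 and 3 among all genes. Car3, Car9 and Car12 were above the 8 others in both mice as well, by 1.76 and 0.83 for Car3, 0.57 and 0.12 for Car9, and 0.90 and 0.79 for Car12. This made 5 of 10 members above the others in both mice, where 9.418% of all genes tested were.

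Some large intestine markers were high in the same mice as Car1 and Car2. Of the 13 measured, 5 were above the 8 other mice in both control mouse 1 and stressed mouse 4, where 9.418% of all genes tested were. Aqp8, a water channel of the colon, was at 7.50 and 7.26 in the pair and at 4.15 to 4.49 in the 8 others. Selenbp1, a selenium-binding protein, was at 12.61 and 11.02 against 9.22 to 9.53. Mettl7b, Gsdmc2 and Hsd11b2 were the remaining 3. The other measured markers were Fxyd4, Aqp4, Slc6a14, Scnn1b, Insl5, Muc1, Tac1 and Ccdc68. In stressed mouse 4 each of these was below the median of the 8 others, from -0.35 (Aqp4) to -0.10 (Ccdc68). In control mouse 1 Slc6a14 and Insl5 were above the 8 others, while Fxyd4, Muc1, Tac1 and Ccdc68 were below their median. Of the 9 markers of this list below the filter, 2 were above the others in both mice. Hoxd10, a posterior patterning gene, was at 7.30 in control mouse 1 and 4.46 in stressed mouse 4 against at most 2.99 elsewhere, and Slc37a2, a sugar phosphate carrier, was at 5.70 and 6.59 against at most 3.996. The other 6 posterior Hox genes were not above the others in both mice: Hoxd12, Hoxd13, Hoxa13, Hoxb13 and Hoxc10 were above them in neither, and Hoxd11 only in control mouse 1, at 3.23 against at most 3.17. The ileal markers did not move the same way, since in control mouse 1 all 11 measured were below the 8 others and in stressed mouse 4 their mean, 11.62, was inside the range of the others. Of 13 red cell marker names, with Epb42 under 2 of them, 6 genes had a probe set with a single symbol. Names without such a probe set were not followed. The 2 measured, Ermap and Klf1, were not above the 8 others in either mouse. Below the filter, Rhag was slightly above them in both, at 1.97 and 2.15 against at most 1.87, values near background, and Hba-a1, Alas2 and Epb42 were not. The array means of Hba-a1 (3.09) and Alas2 (4.15) were below the filter. The part that cells of the large intestine have in these levels was not tested further.

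**Figure D2:**
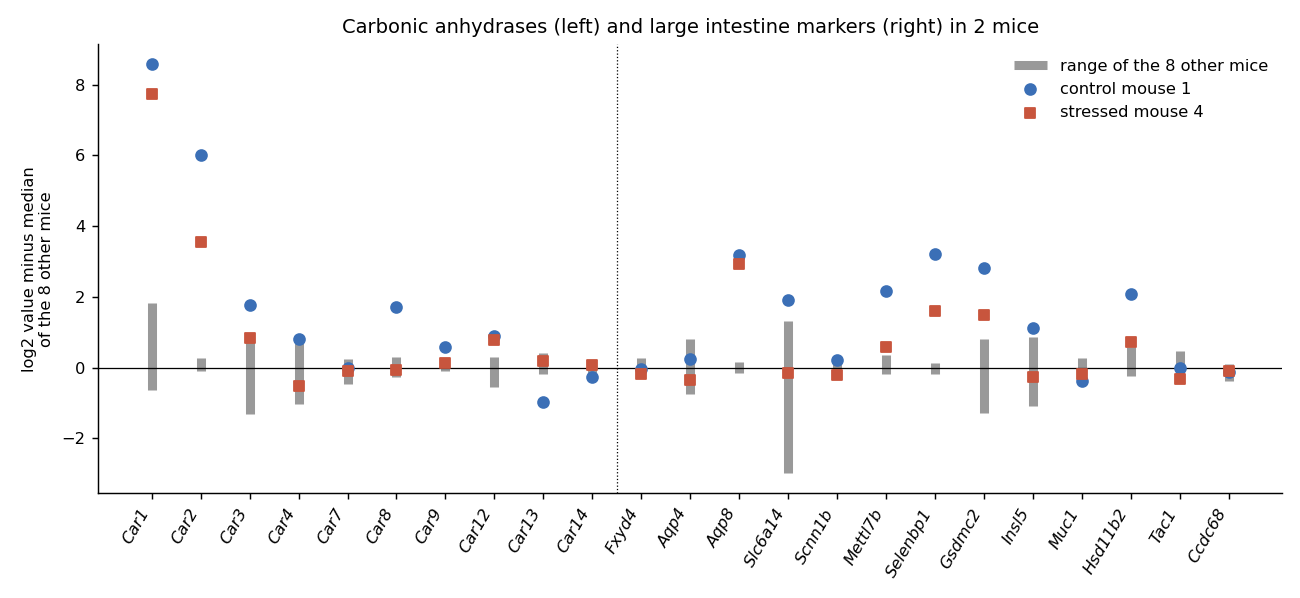
Log2 value of control mouse 1 and of stressed mouse 4 minus the median of the 8 other mice, for the 10 carbonic anhydrases (left) and for 13 large intestine markers (right), with grey bars for the range of the 8 others. Car1 reaches 8.57 and 7.73 and Car2 reaches 6.01 and 3.56, while Car4, Car7, Car8, Car13 and Car14 are not above the others in stressed mouse 4.

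Car1, Car2, Car3 and Car13 are neighbours in the mouse genome. In the RefSeq gene order (GRCm38.p6) Car13, Car1, Car3 and Car2 follow one another with no other protein-coding gene between them. Car1, Car2 and Car3 were each above the 8 other mice in both control mouse 1 and stressed mouse 4, and Car13 was in neither. Car13, a cytosolic enzyme, was lowest of all in control mouse 1, the mouse in which Car1, Car2 and Car3 were highest.

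Car13 was at 6.64, 7.55, 7.62, 7.76 and 7.47 in control mice 1 to 5 and at 7.42, 7.59, 7.96, 7.80 and 8.00 in stressed mice 1 to 5. The groups overlapped, with stressed mouse 1 below every control other than control mouse 1. The difference was 0.34 ± 0.20 (SE) with 10 mice and 0.15 ± 0.12 (SE) without control mouse 1 (limma adjusted p = 0.743 and 0.541). All 3 Car13 probe sets were higher in stressed mice in both comparisons, by 0.32 to 0.57 with 10 mice and by 0.15 to 0.31 without control mouse 1, and no fit called the gene.

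Car3, a cytosolic isoform of low activity that is abundant in fat and muscle, was at 11.81, 10.27, 9.74, 9.96 and 8.74 in control mice 1 to 5. In stressed mice 1 to 5 it was at 9.38, 10.14, 10.61, 10.88 and 10.77. The groups overlapped, and control mouse 1 and stressed mouse 4 were the highest of each. The difference was 0.25 ± 0.49 (SE) with 10 mice, 0.68 ± 0.34 (SE) without control mouse 1 and 0.55 ± 0.35 (SE) without both, at limma adjusted p of 0.927, 0.315 and 0.542. The mean of fat cell markers moved with Car3, while single markers did so less evenly. The mean of the 8 measured adipocyte markers (of 11) was 8.02, 7.00, 6.94, 6.97 and 6.43 in control mice 1 to 5 and 6.62, 6.98, 7.18, 7.32 and 7.46 in stressed mice 1 to 5. Adipoq, the adipocyte hormone adiponectin, was highest at 9.49 in control mouse 1 and lowest at 6.08 in control mouse 5, the mice with the highest and lowest Car3. In stressed mouse 4, 3 of the 8 markers were above the 8 other mice, where 13.98% of all genes were. Cidea was below them there, at 4.61 against 4.79 or more. The mean of 5 skeletal muscle markers stayed within 5.53 to 6.13, but single markers varied more. Ckm was at 8.01 in control mouse 1 and at most 7.02 elsewhere, and Acta1 differed by -1.06 ± 0.27 (SE) with 10 mice (limma adjusted p = 0.345). In control mouse 1, 7 of 8 adipocyte and 7 of 9 smooth muscle markers were above the mice other than it and stressed mouse 4, where 35.64% of all genes were. The part of attached fat or muscle in the Car3 values was not tested.

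Car8, the family member without catalytic activity, was at 10.57, 8.95, 8.58, 8.81 and 9.15 in control mice 1 to 5 and at 9.03, 8.85, 8.84, 8.79 and 8.85 in stressed mice 1 to 5. Control mouse 1 stood above the rest, and the other controls surrounded the stressed mice. The difference was -0.34 ± 0.31 (SE) with 10 mice and 0.00 ± 0.11 (SE) without control mouse 1, at limma adjusted p of 0.820 and 0.995. A second Car8 probe set that passed the filter, at a mean of 4.61, differed by 0.10 ± 0.37 (SE) and 0.46 ± 0.23 (SE). The remaining Car8 probe set lay below the filter and differed by -0.38 and -0.07. Car7, a cytosolic isoform best known from neurons, was close to the floor of 4.15, at 4.87, 4.63, 5.10, 4.87 and 5.07 in control mice and 5.13, 4.92, 4.87, 4.80 and 4.43 in stressed mice. It differed by -0.08 ± 0.13 (SE) with 10 mice (limma adjusted p = 0.916), with the groups overlapping. Without control mouse 1 the Car7 difference was -0.09 ± 0.14 (SE, limma adjusted p = 0.771), and its other probe sets lay below the filter.

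The remaining genes of the family were low. Car5a and Car5b, the mitochondrial isoforms, and Car6, the secreted isoform of saliva, had means of 3.77, 3.64 and 2.70 and lay below the filter. Car10 and Car11, which lack catalytic activity, and Car15, a lipid-anchored isoform, were measured at means of 4.51, 4.62 and 4.90. Their differences with 10 mice were 0.03, -0.12 and -0.07, and 0 of the 3 were called by limma in either comparison, with 0 at an unadjusted p under 0.05.

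Counted over the 10 members with 10 mice, 5 were lower and 5 higher in stressed mice, with a median difference of -0.01 against 0.00 over all genes tested. Limma called 0 of 10 members, and 0% of all genes. Car4 and Car14, 2 of 10, had an unadjusted p under 0.05, where 7.82% of all genes did. The groups did not overlap in the lower direction for Car4 (1 of 10 members, 1.12% of all genes) and in the higher direction for Car14 (1 of 10 members, 1.16% of all genes).

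In the 9 mice left after control mouse 1, 2 members were lower and 8 higher, with a median of 0.17 against 0.03 over all genes. The 1 member called was Car4, lower, where 0.534% of all genes were called lower and 0.263% higher. These were 73 and 36 of 109 called genes, and with each array centred on its median 198 of 242 were lower. Car4, Car12 and Car14, 3 of 10, were at an unadjusted p under 0.05, against 18.0% of all genes. Non-overlapping groups were found for 1 member in the lower direction (2.72% of all genes) and for 2 members, Car12 and Car14, in the higher direction (4.51%). Without both mice 4 members were lower and 6 higher, limma called 0 members, and 0.0439% of all genes were called lower, with Car4 and Car12 at an unadjusted p under 0.05. In those 8 mice the groups did not overlap for Car4 in the lower direction (1 of 10 members, 3.11% of all genes) and for Car12 and Car14 in the higher direction (2 of 10 members, 4.81% of all genes).

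**Figure D3:**
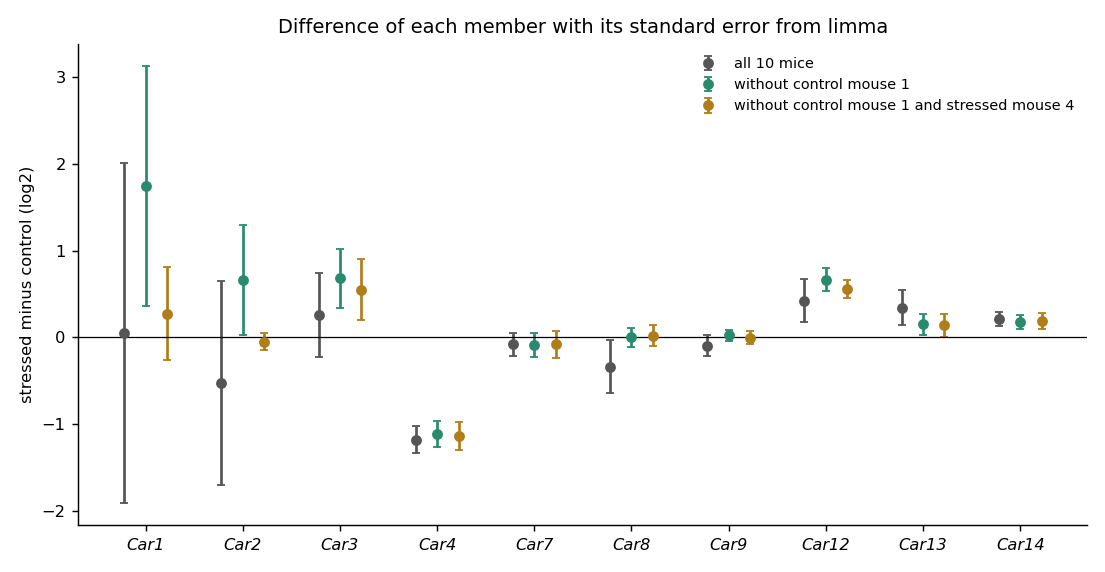
Stressed minus control difference in log2 value for each of the 10 carbonic anhydrases, with the limma SE as bars, for all 10 mice, without control mouse 1, and without control mouse 1 and stressed mouse 4. Car4 stays between -1.18 and -1.12 in the 3 sets of mice, whereas Car1 moves from 0.05 to 1.75 to 0.27 with SE of 1.96, 1.39 and 0.53.

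Bicarbonate and chloride exchangers move the product of these enzymes across the membrane, and 14 of 20 were measured. With 10 mice 8 were lower and 6 higher, and without control mouse 1 the split was 7 and 7. Limma called 0 of them in either comparison, and the median differences were -0.02 and 0.01. At an unadjusted limma p under 0.05 were 1 and 2 of the 14, where 7.82% and 18.0% of all genes tested were. Slc26a2, a sulfate and anion exchanger, was at 10.56 to 10.63 in control mice 2 to 5, at 11.01 in control mouse 1, and at 10.84 to 11.10 in stressed mice. Its groups overlapped with 10 mice and were apart once control mouse 1 was left out, where the difference was 0.35 ± 0.07 (SE) at a limma adjusted p of 0.0535. It was the 1 gene of the 14 with groups apart there, and 4.51% of all genes were apart in the higher direction. Cftr, the chloride and bicarbonate channel, was higher by 0.21 ± 0.09 (SE) when control mouse 1 was left out, at a limma adjusted p of 0.228.

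Of 17 genes of proton, sodium and monocarboxylate transport 12 were measured, and limma called 0 in either comparison. With 10 mice 1 lower gene was at an unadjusted limma p under 0.05, where 7.82% of all genes tested were. Without control mouse 1 it was 3 lower genes, where 18.0% of all genes were. Slc9a3, the sodium and proton exchanger of the apical membrane that works together with carbonic anhydrases, was lower in every stressed mouse than in any control. This held for 1 of the 12 genes and for 1.12% of all genes. Slc9a3 values by mouse follow. It was at 9.91, 8.43, 7.64, 7.63 and 7.62 in control mice 1 to 5 and at 6.07, 7.08, 5.93, 7.37 and 6.27 in stressed mice 1 to 5. The difference was -1.70 ± 0.45 (SE, limma adjusted p = 0.364) with 10 mice and -1.29 ± 0.29 (SE, limma adjusted p = 0.0636) without control mouse 1. Slc5a8, a sodium-coupled monocarboxylate carrier, had a difference of -0.39 ± 0.13 (SE) there, at a limma adjusted p of 0.160.

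Hypoxia-responsive genes were set beside Car9 and Car12, which respond to low oxygen in other tissues. Of 24 genes 23 were measured, 13 lower and 10 higher with 10 mice, and 9 lower and 14 higher without control mouse 1. Without that mouse Pfkfb3 fell by 1.37 ± 0.25 (SE, limma adjusted p = 0.0342) and Pfkfb4 fell by 0.48 ± 0.07 (SE, limma adjusted p = 0.0228). Both encode forms of the enzyme that sets the level of an activator of glycolysis. These were the 2 of the 23 called without control mouse 1, where 0.534% of all genes were called lower. The median difference of the list was 0.08 there, against 0.03 over all genes. Limma called 0 of the 23 with 10 mice, and 3 were at an unadjusted p under 0.05, against 7.82% of all genes. Without control mouse 1, 4 lower and 3 higher genes were at an unadjusted limma p under 0.05, against 18.0% of all genes tested. There the groups did not overlap for 2 lower genes, Pfkfb3 and Pfkfb4 (2.72% of all genes), and for 3 higher ones (4.51%). The 3 were Egln1 (0.23 ± 0.07, SE), P4ha2 (0.36 ± 0.09, SE) and Epas1 (0.34 ± 0.10, SE). They were not called, at limma adjusted p of 0.108, 0.0816 and 0.123. In control mouse 1 Pfkfb3 was at 5.38 and Pfkfb4 at 6.62, like or below the stressed mice. Car9 did not pass in either direction.

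**Figure D4:**
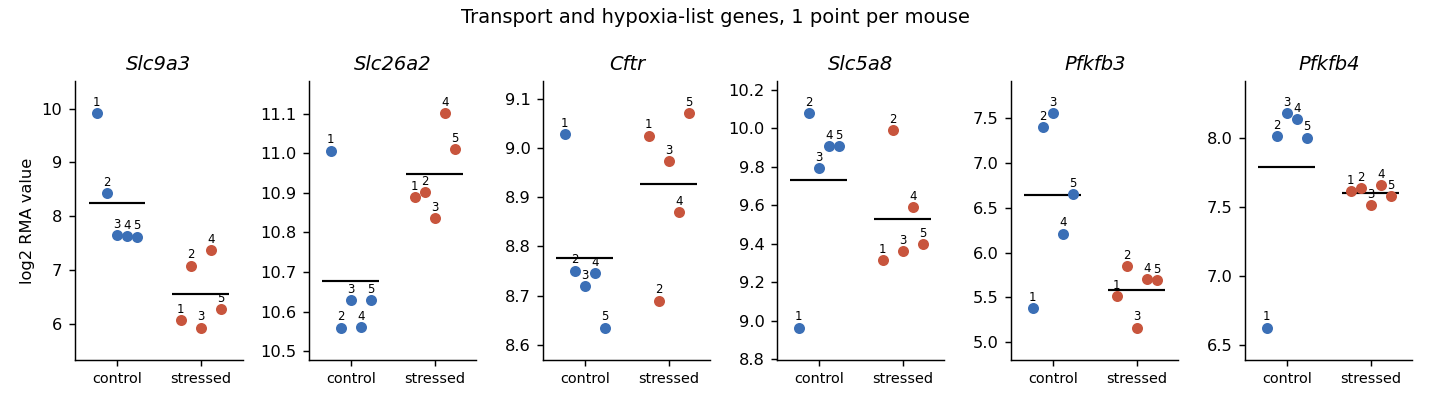
Log2 value in every mouse of related genes: Slc26a2 and Cftr of anion exchange, Slc9a3 and Slc5a8 of proton and monocarboxylate transport, and Pfkfb3 and Pfkfb4 of the hypoxia list, with points numbered by mouse and a black line at each group mean (n = 5). Slc9a3 lies at 7.62 or above in controls and at 7.37 or below in stressed mice, and control mouse 1 is at 5.38 for Pfkfb3, below its group.

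Genes whose profile over the 9 mice without control mouse 1 was nearest to that of Car4 were found by the root mean square difference between mean-centred log2 values. The nearest 5 were AA467197 (0.159), which encodes a small mitochondrial protein, Gpx2 (0.216), a glutathione peroxidase of the gut, Mptx1 (0.217), a mucosal pentraxin, Cfi (0.219), complement factor I, and Nfkbiz (0.222), a nuclear regulator of inflammatory genes. Each was lower in stressed mice over those 9 mice, with differences of -1.05 (AA467197), -0.92 (Gpx2), -0.71 (Mptx1), -1.09 (Cfi) and -1.04 (Nfkbiz). The measure selects for this direction, since it compares the values of the same mice. Control mouse 1, which the measure did not use, was above all other mice for AA467197, at 12.47, as it was for Car4, at 11.29. Gpx2 (10.73), Mptx1 (9.12), Cfi (4.38) and Nfkbiz (8.00) were below the other controls there.

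**Figure D5:**
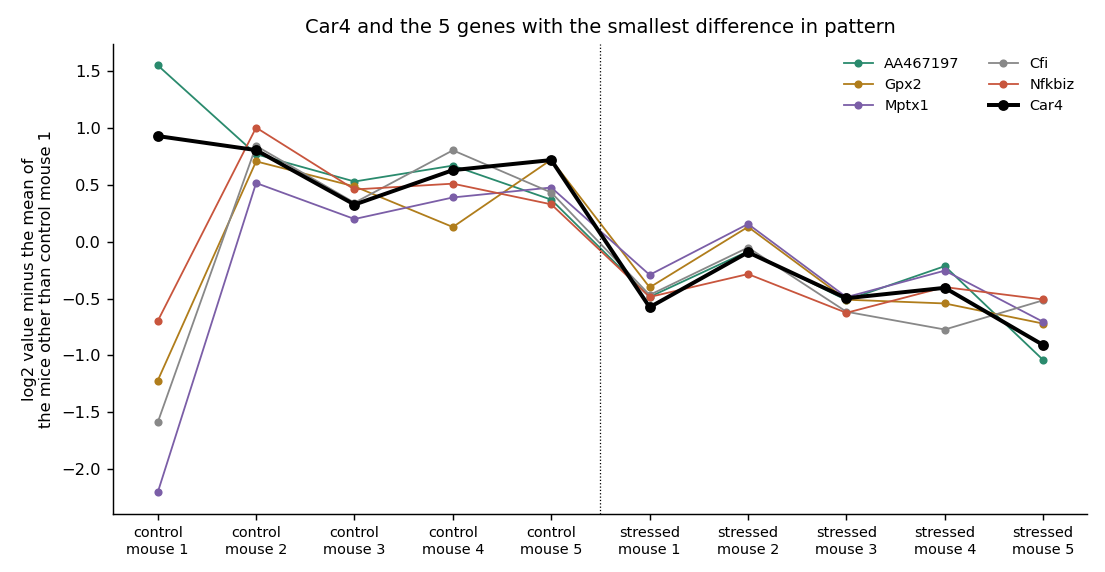
Log2 value of Car4 and of the 5 genes with the nearest profile, each minus its mean over the 9 mice other than control mouse 1, by mouse. The lines run together over those 9 mice and part at control mouse 1, where Car4 and AA467197 are high and Gpx2, Mptx1, Cfi and Nfkbiz are low.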

How the data were processed

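Total RNA of the terminal ileum of 10 mice, 100 ng each, was labelled by a 3' in vitro transcription kit and measured on 1 Affymetrix array per mouse, per the labels' protocols. The values, as the authors deposited them, are log2 levels per probe set from RMA (robust multi-array average), per the submitters' processing notes. The version of RMA is not given in the sources used here. Base 2 was inferred from the range of 1.22 to 14.4. RMA gives all arrays a common distribution, so changes in total RNA cannot be seen, and it understates changes near background. The number of arrays limits the precision.

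Probe sets with 1 platform symbol (34945 of 45101) were used, the lowest 40 percent by mean were left out (floor 4.15), and each gene took its probe set with the highest mean, which left 13666 genes. Of 22 probe sets of the members 17 passed. Sample titles gave each mouse its group and number. The comparison used limma 3.58.1 (lmFit, eBayes) in R 4.3.3, with Benjamini-Hochberg adjustment over all genes. The fit was tested on simulated data. Alternatives were the filter, the probe set rule, array weights, the mouse number as a block, median centring, a variance trend, a large intestine covariate, an exact permutation test over mice, and leaving out each mouse. The members, lists and rules were chosen with earlier results of these data known. Genes named are all members and other family genes, the called genes of each list, for lists of related genes without a call the 2 with the smallest p, and the 5 genes nearest in profile to Car4. Fabp6, the markers set beside Car1, Car2 and Car3, and the genes nearest to Car2 were picked outside this rule, after their values were seen.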

Additional observations from a re-analysis of the deposited data

Results flagged for a closer look

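Among the 10 carbonic anhydrases, the highest or lowest mouse was set against the others of its group by Dixon's ratio, the gap to the nearest mouse divided by the whole range of the group. Of 30 groups tested (each member in all controls, in stressed mice and in controls without mouse 1), 8 held a mouse that stood apart. A single group is flagged by chance about 1 time in 20. The 30 groups share mice and arrays, so their count cannot be set against that rate, and the share over all genes is not given. Control mouse 1 stood apart in 5 of the 8, at 14.17 for Car1, 12.77 for Car2, 10.57 for Car8 and 8.40 for Car9 as the highest control, and at 6.64 for Car13 as the lowest. Stressed mouse 4 stood apart at 10.33 for Car2 and 7.80 for Car12, and stressed mouse 1 at 9.03 for Car8, each as the highest stressed mouse.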

How the results depend on the processing

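Of 368 alternative values for the 10 members, 330 kept their direction and their side of the threshold, 2 lost the call, 10 gained it and 26 changed sign. Every change of sign was in Car1, Car2, Car3, Car7, Car8 or Car9, none of them called. Car4 stayed lower under every setting run, and Car12, Car13 and Car14 stayed higher.

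With 10 mice Car4 was called with the mean of its probe sets (adjusted p = 0.0396), array weights (0.0229), median centring (0.0228) and the large intestine covariate (0.0344) in limma. Car12 was called, in the 9 mice without control mouse 1, with array weights (0.0387), a variance trend (0.0415), the covariate (0.0416) and without stressed mouse 2 (0.0395). Its limma adjusted p over the settings that left out a further mouse was 0.0395 to 0.103. The mean of its probe sets gave 0.44 ± 0.11 (SE, limma adjusted p = 0.0980).

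Signs changed with 10 mice in Car2 under array weights (0.41) and the covariate (1.21), and under the covariate in Car8 (0.044) and Car9 (0.054). In the 9 mice without control mouse 1 they changed in Car8 under array weights (-0.081), the replicate block (-0.037), median centring (-0.063) and the covariate (-0.0053), and in Car9 under median centring (-0.042). Leaving out each mouse gave, with 10 mice, Car1 -1.42 to 1.75, Car2 -1.24 to 0.66, Car3 -0.087 to 0.68, Car7 -0.15 to 0.020, Car8 -0.50 to 0.0018 and Car9 -0.15 to 0.023. In those 9 mice it gave Car2 -0.047 to 0.87, Car7 -0.18 to 0.011, Car8 -0.097 to 0.094 and Car9 -0.0095 to 0.042. The causes were not tested.

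Limma called 0 genes with 10 mice, 2 with the mean of probe sets, 41 with array weights, 2 with median centring, 8 with the covariate and 0 to 109 when each mouse was left out, the highest without control mouse 1. In the 9 mice it called 109, then 242 with median centring, 170 with a trend, 63 with the covariate, 0 by exact permutation and 6 to 154 when a further mouse was left out, the lowest without stressed mouse 4. With the mouse number as a replicate block the counts were 0 and 95, of which 54 were among the 109. Same-numbered mice correlated in their deviations at -0.30 to 0.28 and 1 of 5 was nearest to its own number. These values gave no sign of pairing by number, but 5 pairs cannot settle it.

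Car7 lay near the floor and had no value under the stricter filter. By exact permutation over the 9 mice Car4 was at an adjusted p of 0.174, set by the 126 assignments that 9 mice allow.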

Other observations

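Marker genes that limma called without control mouse 1 lay beside the Car4 difference in the same mice. Slc40a1, the iron exporter, fell by 0.89 ± 0.17 (SE, limma adjusted p = 0.0365) and Cck, the hormone cholecystokinin, fell by 0.52 ± 0.09 (SE, limma adjusted p = 0.0301), both of the proximal small intestine list. Ada, the adenosine deaminase of the villus tip, fell by 1.00 ± 0.19 (SE, limma adjusted p = 0.0444). Of the ileal list Fgf15 and Cubn were called higher. Limma called 0 of 13 large intestine, 10 epithelial and 8 adipocyte markers in that comparison.

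Seen after the values were known, the gene with the profile nearest to Car2 over the 9 mice without control mouse 1 was Aqp8, at a root mean square difference of 0.235, followed by Sult1a1 at 0.351. Both pairs share the same arrays, and the high value of stressed mouse 4 sets the likeness. In the 8 mice without a high Car1, Car1 still ranged from 4.95 to 7.41, with control mouse 2 at 7.06 and stressed mouse 1 at 7.41 as the highest.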
